A study of Mus musculus with 48 samples.

Results

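The nuclear-encoded subunits of the oxidative phosphorylation system were followed in RNA from hippocampal CA neurons and from whole hippocampal CA tissue of Setd1b cKO and control mice. Members were chosen by symbol: genes named Ndufa, Ndufb, Ndufc, Ndufs or Ndufv with a number, Sdha to Sdhd, Uqcr genes, Cox4 to Cox8 genes and Atp5 genes. Pseudogenes and assembly factors were left out. This gave 83 genes among the 47569 gene identifiers present in both RNA tables. Complex I contributed 36 members, complex II 4, complex III 8, complex IV 19 and complex V 16. Ndufa4 and Ndufa4l2 were placed with complex IV, where the Ndufa4 protein is found. A further 11 matching symbols were excluded: 6 carried a pseudogene suffix, 3 (Ndufa11b, Ndufs6b and Cox6c2) are pseudogenes in RefSeq, and Cox7a2l and Atp5s act in assembly.

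Oxidative phosphorylation makes most of the ATP of neurons. Complex I oxidises NADH, complex II oxidises succinate, complex III passes electrons from ubiquinol to cytochrome c, complex IV reduces oxygen, and complex V, the ATP synthase, uses the proton gradient that complexes I, III and IV build. Most subunits are encoded in the nucleus, and a small set, left out of the members, is encoded in mitochondrial DNA. Setd1b encodes a methyltransferase that places methyl groups on lysine 4 of histone H3, and its trimethylated form (H3K4me3) marks the starts of active genes. The transcription factors NRF1, the ETS-family factor GABP, YY1 and SP1 are known regulators of nuclear genes for mitochondrial proteins.

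All mice were adult C57BL/6J animals of 4 to 6 months, with the genotype given as Setd1b cKO or Control. The labels used here give neither the Cre driver nor the deleted exons. Neuron RNA comprised 3 libraries of each genotype, whole CA RNA 6 of each, and H3K4me3 ChIP-seq from sorted neuronal nuclei 4 of each. Nothing in the labels says that replicates were separate animals, so p-values measure the spread between these libraries. Setd1b counts, taken over the whole gene, went against the labels. They were 60.4 to 70.3 CPM (counts scaled to a common library size, the usual unit of count data) in neuron libraries labelled cKO against 48.0 to 65.3 in those labelled control (log2 fold change 0.24 ± 0.13 (SE), edgeR adjusted p = 0.361). In whole CA they were 54.3 to 67.2 against 29.3 to 54.2 CPM (0.58 ± 0.11 (SE), edgeR adjusted p = 0.00415), higher under the cKO label. Counts over the whole gene do not show whether a few exons were deleted. The groups are therefore called by their labels throughout. Neurod6, a neuronal marker, fell in both materials (log2 fold change -2.25 ± 0.12 (SE, n = 3 and 3), edgeR adjusted p = 0.00003 in neuron RNA; -1.78 ± 0.14 (SE, n = 6 and 6), edgeR adjusted p = 1.48e-07 in whole CA). Of the 6 neuron markers listed, Neurod6 alone was called in either material. Log2 fold changes were below 0 for 5 of them in neuron RNA (median -0.11) and for 3 in whole CA (median -0.01). In the neuron libraries, summed CPM of 5 astrocyte markers was 25.5 to 32.1 against 1360 to 1720 in whole CA, while 6 neuron markers summed to 4950 to 5460 against 10500 to 12700 CPM.

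The promoters of the members are shown first because histone marks were measured there. RefSeq promoter sequence (GRCm38.p6; 250 bases before to 50 after a start) was found for 66 of the 83 members, with 71 starts. Exact matches on both strands were counted for NRF1 (GCGCNTGCG), ETS factors (CCGGAAGT), YY1 (AAGATGGCG) and SP1 (GGGCGG), letters that do not contain one another. The NRF1 letters stood in 24 of 71 member promoters (33.8%), against 6.31% of all 32851 promoters and 11.1% of the 17911 promoters with an H3K4me3 peak in at least 3 libraries. YY1 letters stood in 7 member promoters (9.86%), against 1.40% and 2.33%. ETS letters (5 promoters, 7.04%, against 3.89% and 6.44%) and SP1 letters (27 promoters, 38.0%, against 35.7% and 58.5%) were closer to the share of all promoters, and the SP1 share lay below that of H3K4me3-marked promoters. These shares describe letters in a window and were given no test.

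Stretches of 29 bases around the NRF1 letters, in capitals, are printed for some members of complexes I, II, IV and V, 5′ to 3′ on the gene's strand. The capitals are alike by construction, because only exact matches were searched. N is the variable base, and a match on the opposite strand reads CGC first.
Ndufa8: ctagagcagtGCGCTTGCGcgtcgctgga
Ndufa11: cctgcactgcGCGCATGCGcgcacgcctt
Sdha: gtttacagggCGCAGGCGCaccaccactc
Sdhd: cgctggggtgCGCACGCGCggtggcagcg
Cox6a1: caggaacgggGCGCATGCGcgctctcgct
Atp5g2: ggctccggccGCGCATGCGcagagccttc
Atp5k: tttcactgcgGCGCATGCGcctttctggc
The match began 30 bases before the start in Ndufa8, 60 in Ndufa11, 97 in Sdha, 78 in Sdhd, 162 in Cox6a1, 42 in Atp5g2 and 50 in Atp5k. On GRCm38.p6 these stretches lie at chr2:36049350-36049378, chr17:56717692-56717720, chr13:74350319-74350347, chr9:50603909-50603937, chr5:115349102-115349130, chr15:102671071-102671099 and chr5:108434431-108434459, in the order printed, with Ndufa11 on the plus strand and the others on the minus strand.

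Depth differed between the materials. Neuron libraries held between 55.7 M and 69.1 M counts (M, mega), and whole CA libraries between 14.9 M and 20.1 M. The share of counts taken by members was 0.314 to 0.358% in the neuron libraries. It was 0.720 to 0.973% in the whole CA libraries. After a filter on low counts, 77 members were tested in neuron RNA and 79 in whole CA. Ndufb4c, Cox7b2, Cox8b and Cox8c were tested in neither, and Cox4i2 and Cox6b2 only in whole CA. The filter sets aside members too low to test, and the counts below refer to tested members.

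In neuron RNA, the genotypes were close for every complex. Summed CPM of complex I members was 962, 1040 and 993 in the libraries labelled cKO and 1027, 1038 and 1036 in those labelled control. Complex II summed to 312, 350 and 328 against 305, 330 and 336 CPM, and complex III to 305, 342 and 324 against 347, 347 and 347 CPM. For complex III all libraries labelled cKO lay below all labelled control, while the other complexes overlapped. Complex IV summed to 383, 436 and 393 against 389, 434 and 424 CPM, and complex V to 1202, 1404 and 1277 against 1261, 1365 and 1368 CPM. The first cKO library had the lowest member share of counts of all 6. In whole CA the sums were higher and the genotypes overlapped for every complex: complex I had means of 2225 ± 193 (SD, n = 6) CPM in cKO and 2198 ± 147 in control, complex IV 1426 ± 165 and 1414 ± 103, and complex V 3230 ± 294 and 3202 ± 226.

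**Figure D1:**
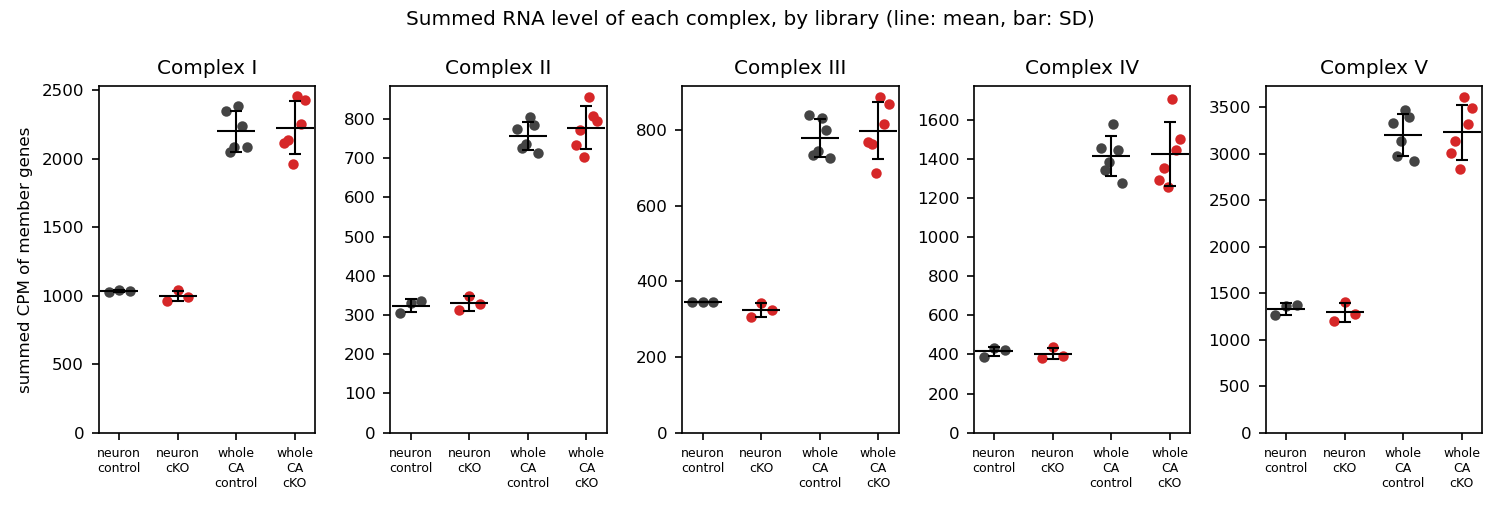
Summed CPM of member genes (vertical axes, from 0) for each complex, with 1 point per library, a line at the group mean and a bar of 1 SD; grey is control and red is cKO. Genotypes overlap within a material except for complex III in neuron RNA, where cKO libraries reach 342 and control libraries stand at 347, and whole CA libraries lie above neuron libraries in each panel.

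Tested gene by gene with edgeR, no member passed an adjusted p of 0.05 in neuron RNA, in either direction. Of all 19622 genes tested there, 2.0% were called lower and 0.744% higher in cKO. An unadjusted p under 0.05 was reached by 7 of 77 members, beside 3379 of all 19622 genes tested, and DESeq2 also called 0 members. The median log2 fold change of the members was -0.05 (47 of 77 below 0), beside 0.02 for all genes. Complex medians were -0.06 for I, 0.05 for II, -0.09 for III (7 of 8 below 0), -0.02 for IV and -0.04 for V. Without the first cKO library the median of the members was 0.004, so its sign rests on that library. Some marker sums differed in the same libraries, in both directions. Summed CPM of the 6 neuron markers was 4950 to 5330 in cKO and 5360 to 5460 in control, with Neurod6 among them, and of 4 endothelial markers 4.69 to 5.15 against 6.50 to 7.14. The 2 oligodendrocyte precursor markers went the other way, with 4.75 to 5.26 CPM in cKO against 3.81 to 4.54 in control. Sums of astrocyte, oligodendrocyte, microglia, mural and interneuron markers overlapped between the genotypes. The part of these markers in the member values was not tested.

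The tested members of complex I included its core and catalytic subunits, and none was called in neuron RNA. Ndufs1, the largest subunit and a carrier of iron-sulfur clusters, stood at 124, 130 and 115 CPM in cKO and 107, 121 and 118 in control. Ndufv1, which binds the FMN cofactor and NADH, stood at 102, 103 and 105 against 119, 107 and 113 CPM. The genotypes overlapped for Ndufs1 and not for Ndufv1, whose log2 fold change was -0.12 ± 0.08 (SE). Ndufs7, which carries the last iron-sulfur cluster before ubiquinone, had the smallest unadjusted p of any member: 27.4, 28.2 and 28.7 CPM in cKO against 36.0, 34.1 and 31.2 in control. Its log2 fold change of -0.26 ± 0.09 (SE) did not pass the edgeR test across all genes (adjusted p = 0.182). Ndufs8, another cluster carrier, and the accessory subunits Ndufa10, Ndufa11 and Ndufa13 had log2 fold changes of -0.23, -0.20, -0.26 and -0.21, none of them called. Ndufb4, a membrane-arm subunit, had the opposite sign, with 5.27, 4.04 and 4.68 CPM in cKO and 3.76, 3.90 and 3.56 in control (0.32 ± 0.13 (SE), edgeR adjusted p = 0.25).

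Complexes II to V held no called member either. Sdha, the flavoprotein of complex II that oxidises succinate, stood at 206, 234 and 213 CPM in cKO and 195, 211 and 219 in control neuron libraries. Sdhb, its iron-sulfur partner, stood at 47.9, 52.2 and 54.1 against 55.8, 56.9 and 55.1 CPM, without overlap (log2 fold change -0.12 ± 0.08 (SE)). Uqcrc1, a core protein of complex III, stood at 118, 121 and 124 against 145, 131 and 135 CPM, also without overlap (-0.17 ± 0.08 (SE), edgeR adjusted p = 0.323). Uqcrfs1, the Rieske protein that hands electrons to cytochrome c1, overlapped at 26.5, 33.6 and 27.4 against 29, 33.2 and 34 CPM. In complex IV, Cox4i1, the ubiquitous isoform of subunit 4, had a log2 fold change of -0.09 ± 0.08 (SE) and Cox5a one of -0.11 ± 0.10. Cox5b, which binds zinc, stood at 37.9, 39.4 and 36.1 CPM in cKO and 43.6, 42.3 and 43.0 in control (-0.18 ± 0.08 (SE), edgeR adjusted p = 0.268). In complex V, the catalytic beta subunit Atp5b differed by -0.04 ± 0.10 (SE) and the alpha subunit Atp5a1 by -0.05 ± 0.11 on the log2 scale.

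**Figure D2:**
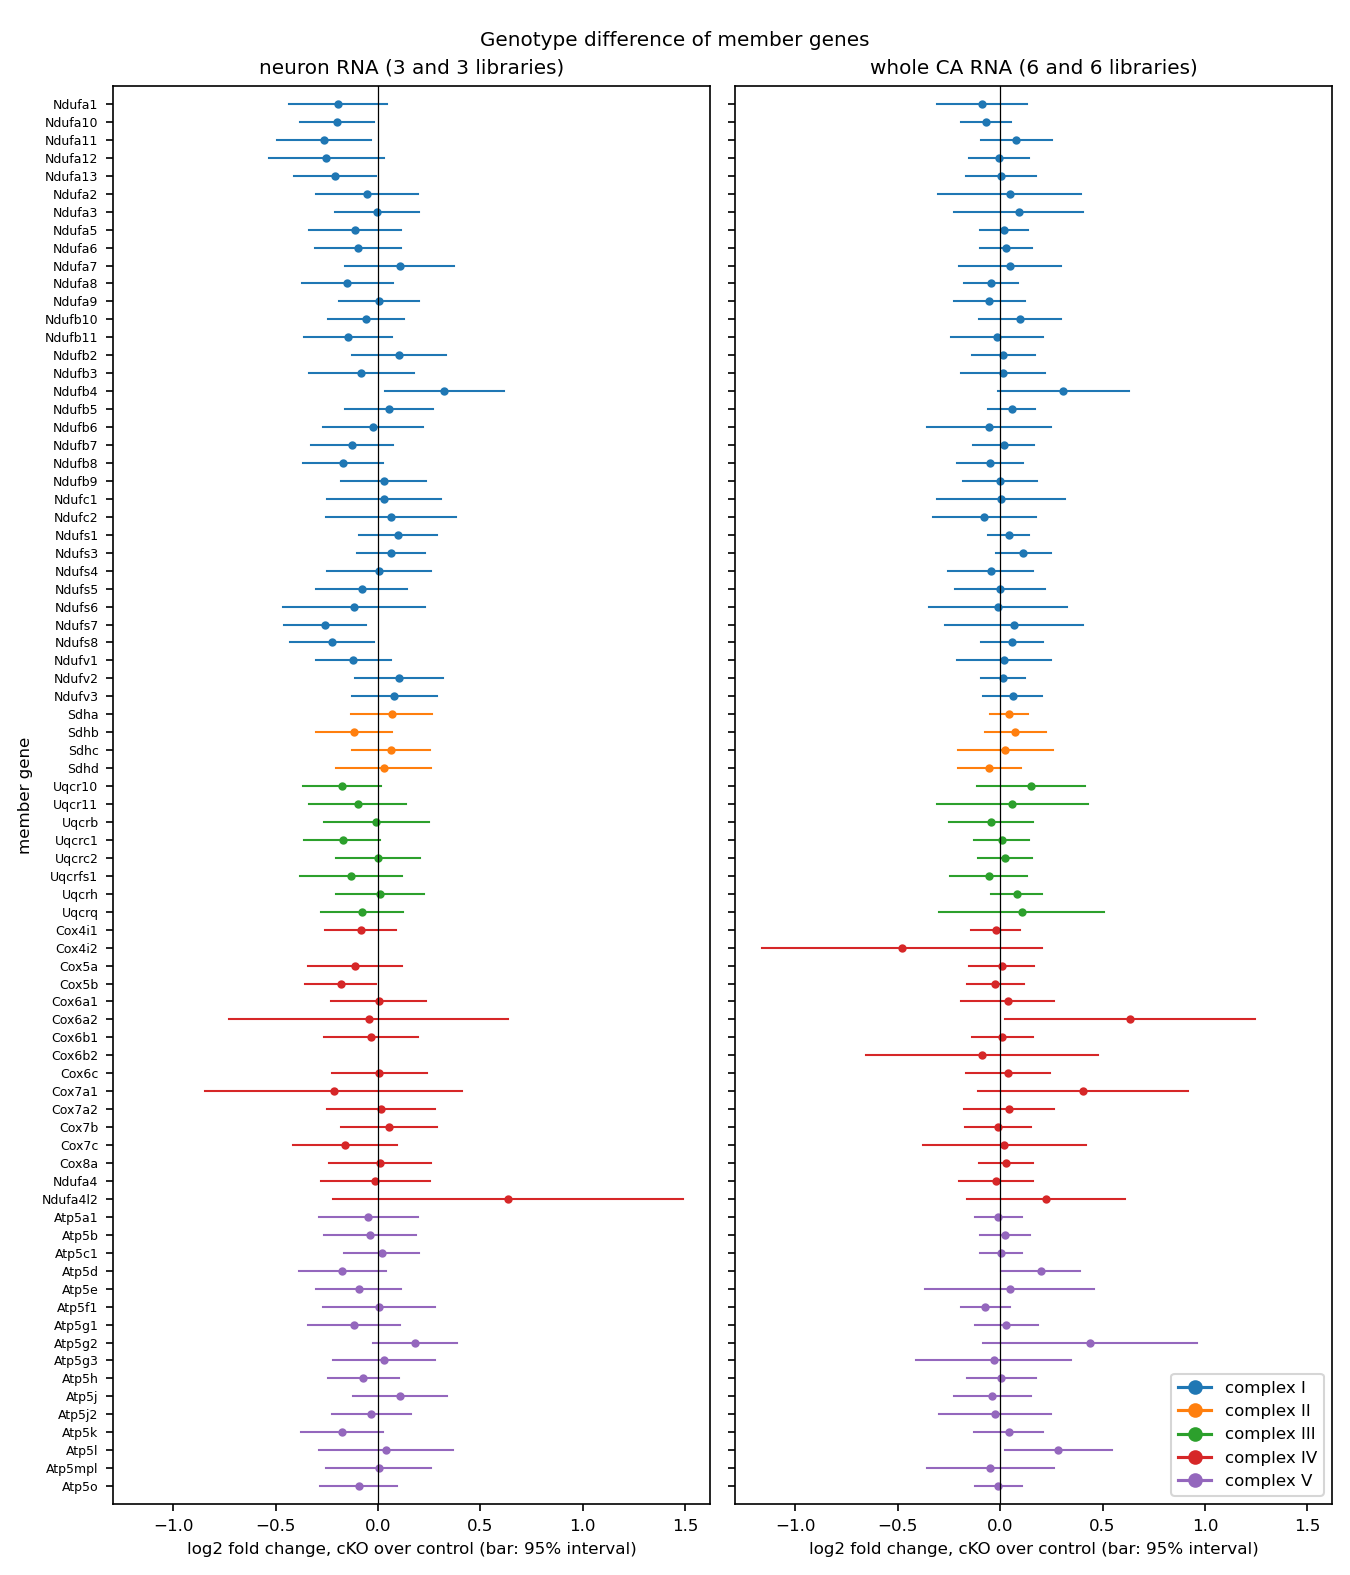
Log2 fold change of cKO over control (horizontal axis) for the tested members but 1 (rows, coloured by complex) in neuron RNA (left) and whole CA RNA (right); bars are unadjusted 95% intervals. Values lie between -0.26 and 0.63 in neuron RNA and between -0.48 and 0.63 in whole CA, and no member passed an adjusted p of 0.05.

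The intervals show how small a genotype difference these libraries leave room for. The unadjusted 95% interval lay within 0.5 log2 units of 0 for 72 of 77 members in neuron RNA and for 70 of 79 in whole CA; it lay within 1 log2 unit for 76 and 77. Among all genes tested, 52.8% and 74.1% had an interval within 0.5. The half-width of the members' intervals had a median of 0.22 log2 units for neuron libraries and 0.18 for whole CA libraries. In neuron RNA the cKO values were all below the control values for 16 of 77 members, and all above them for 2 (Ndufb4 and Atp5g2), beside 13.2% and 10.8% of all genes tested. Of those 16, 10 belong to complex I (Ndufa1, Ndufa8, Ndufa10, Ndufa11, Ndufa13, Ndufb7, Ndufb8, Ndufs7, Ndufs8 and Ndufv1). The rest are Sdhb, Uqcr10, Uqcrc1, Cox5b, Atp5k and Atp5o. In whole CA the genotypes overlapped for all 79 tested members, beside 1.86% of all genes with cKO below and 1.28% with cKO above.

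In whole CA RNA no member was called in either direction, where 2.79% of all 15362 genes tested were called lower and 1.38% higher by edgeR. An unadjusted p under 0.05 was reached by 3 of 79 members, beside 2410 of all 15362 genes tested, and DESeq2 called 0 members here too. The median log2 fold change of the members was 0.02, beside 0.00 for all genes, with 28 of 79 below 0. Atp5l, the g subunit of the ATP synthase, ranged from 3.89 to 6.02 CPM in cKO (median 5.30) and from 3.49 to 4.72 in control (median 4.35), with a log2 fold change of 0.28 ± 0.12 (SE) and an edgeR adjusted p of 0.263. Cox6a2, the heart and muscle isoform of subunit 6a, ranged from 1.2 to 3.72 CPM in cKO (median 2.08) and from 0.825 to 2.36 in control (median 1.22; 0.63 ± 0.29 (SE), edgeR adjusted p = 0.291). The core subunits differed by less: Ndufs1 0.04 ± 0.05 (SE), Sdha 0.04 ± 0.05, Uqcrc1 0.01 ± 0.06, Cox4i1 -0.02 ± 0.06 and Atp5b 0.02 ± 0.06 on the log2 scale. Summed CPM of the 5 microglia markers had a median of 232 in cKO (highest library 244) and of 271 in control (highest library 305), and of the 5 astrocyte markers 1360 to 1480 against 1440 to 1720; their part in the member values was not tested. Sdhb and Uqcrh had the smallest unadjusted p of complexes II and III, with 0.08 ± 0.07 (SE) and 0.08 ± 0.06.

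The whole CA libraries came from different lanes, per the file names, with replicates 1 to 3 on one and replicates 4 to 6 on the other. Within replicates 1 to 3 the median log2 fold change of the members was -0.07, and within replicates 4 to 6 it was 0.11. The genotype difference thus had opposite signs in the separate lanes, with 0 members called in each. In the same libraries, the mean log2 CPM of the members ran against the share of counts from mitochondrially encoded genes. That share was lowest in cKO replicate 4 (3.41%), where complex IV members summed to 1706 CPM, and highest in cKO replicate 3 (7.05%), where they summed to 1254 CPM. Over the 12 libraries Pearson's r was -0.908 and Spearman's rho -0.937. It was -0.863 and -0.907 (Pearson) within the lanes, -0.957 and -0.883 within cKO and control, and -0.878 without the 2 libraries farthest from the median share. The mitochondrial share leaves out 5 mitochondrially encoded subunits that are listed at 0 in every library. The points share the tissue and the total count by which both measures are divided, and the relation is given as a description. The non-member genes most like the members' mean over these 12 libraries were Mrpl36 (r = 0.976), Ap2m1 (0.974), Rps18 (0.971), Snx17 (0.969) and Sys1 (0.967), among 14890 genes tested in both materials.

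**Figure D3:**
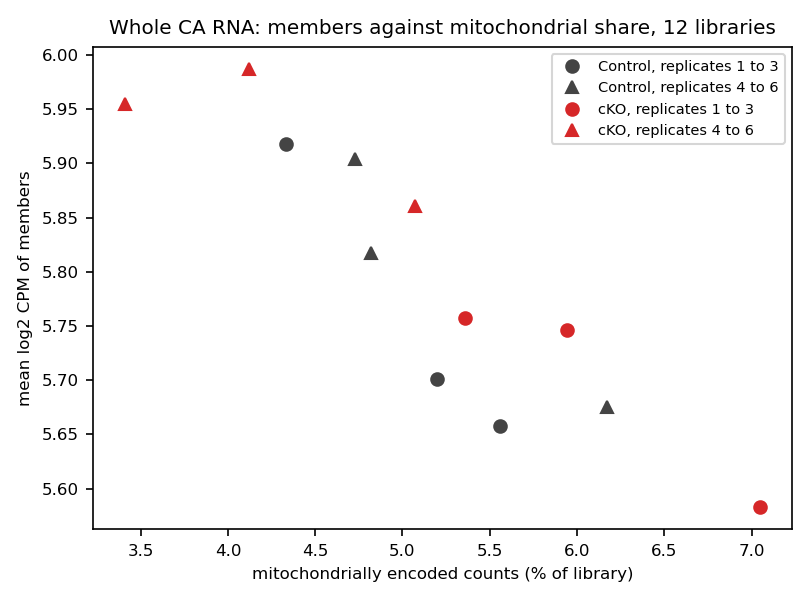
Mean log2 CPM of the members (vertical axis, not from 0) against the percentage of counts from mitochondrially encoded genes (horizontal axis) in the 12 whole CA libraries; colour gives the genotype and shape the lane. The libraries run from 3.41% to 7.05%, and Pearson's r is -0.908.

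A test of whether the genotype difference itself differed between materials, an interaction contrast over all 18 RNA libraries, called no member, with 0.160% of 17523 genes called in either direction. An unadjusted p under 0.05 was reached by 3 of 79 members, beside 1421 of all 17523 genes tested. The 3 were Ndufa11 (difference of log2 fold changes -0.34 ± 0.14 (SE)), Atp5d, the delta subunit of the ATP synthase (-0.37 ± 0.15), and Ndufs8 (-0.28 ± 0.12). The smallest edgeR adjusted p among these 3 was 0.577.

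The larger contrast lay between the materials. Compared in control libraries, 70 of 79 tested members were lower in neuron RNA than in whole CA RNA and 5 were higher, where 39.8% of all 17523 genes were called lower and 43.2% higher. The median difference of the members was -1.53 on the log2 scale, beside 0.07 for all genes. Complex IV members had a median of -2.12 (14 of 16 lower), complex I -1.52 (31 of 35), complex III -1.47 (8 of 8), complex V -1.45 (13 of 16) and complex II -1.43 (4 of 4). Cox4i2 and Cox6b2 of complex IV passed the filter only through whole CA. Without these 2 genes the complex IV median was -1.91 (12 of 14 lower), and 68 of 77 members were lower in all. Summed CPM was 3.4-fold higher in whole CA for complex IV, and 2.13 to 2.4-fold higher for the others. These CPM were scaled within each material, so the folds are not on the scale of the fitted log2 differences. Material, isolation and depth go together here and cannot be told apart, nor can any batch that the labels do not name. The part of the cell that gave the neuron RNA is not stated and goes with them. Nuclear-retained RNAs summed to 34800 to 38900 CPM in control neuron libraries against 5280 to 6400 in control whole CA. Mitochondrially encoded genes took 0.00814 to 0.0128% of counts against 4.33 to 6.17%. Their part in the member difference was not tested. In bulk RNA, fewer cells of a type and less RNA per cell cannot be told apart.

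Cox6b1, which joins the complex IV dimer, stood at 23.2, 22.2 and 23.8 CPM in the control neuron libraries and at 163 to 192 CPM (median 168) in the control whole CA libraries. Its difference was -3.07 ± 0.11 (SE) on the log2 scale (edgeR adjusted p = 1.38e-17). Cox4i1 stood at 58.0 to 59.8 against 317 to 353 CPM (-2.69 ± 0.08 (SE)). Ndufa1, a small X-linked membrane-arm subunit, stood at 5.62 to 6.39 against 31.4 to 44.4 CPM (-2.88 ± 0.14). In complex V, Atp5a1 (-1.62 ± 0.08) and Atp5b (-1.61 ± 0.08) were lower by near the median, as were Sdha (-1.40 ± 0.07) of complex II and Uqcrc2 (-1.64 ± 0.09) of complex III. Core subunits of complex I were spread widely: the log2 difference was -1.81 ± 0.07 for Ndufv2, -1.54 ± 0.09 for Ndufs8, -0.71 ± 0.06 for Ndufs1, -0.45 ± 0.13 for Ndufv1 and, not called, -0.28 ± 0.17 for Ndufs7, while Ndufs3 was higher in neuron RNA.

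Complex IV has paralogues known from other tissues or conditions. Cox4i2 and Cox6b2 were too low to test in neuron RNA alone and entered the comparison of materials through whole CA, so their direction was set by the filter. Without them 12 of 14 complex IV members were called lower, with a median of -1.91, and 68 of 77 members in all. Cox4i2, the lung and hypoxia isoform of subunit 4, had 1, 4 and 2 counts in the control neuron libraries (0.0165, 0.0651 and 0.0292 CPM) and 0.535 to 1.59 CPM in control whole CA. Its fitted difference of -4.69 ± 0.55 (SE) rests on those few counts. Cox6b2, a testis isoform, averaged 0.110 against 1.58 CPM (-3.98 ± 0.39) and Ndufa4l2, the hypoxia-induced paralogue of Ndufa4, 0.173 against 1.70 CPM (-3.44 ± 0.29). The muscle isoforms Cox6a2 (-1.21 ± 0.34) and Cox7a1 (-0.87 ± 0.28) were lower by less. Among the widely expressed partners, Cox6a1, Cox7a2, Cox7b, Cox8a and Ndufa4 were lower too, with differences of -2.31, -2.30, -1.94, -1.87 and -2.72 on the log2 scale. Cox8c was at 0 in every library.

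The 5 members higher in neuron RNA were Atp5g2, Cox7c, Atp5h, Ndufs3 and Atp5g1. Atp5g1, Atp5g2 and Atp5g3 encode the same mature c-ring protein of the ATP synthase, and they moved apart. Atp5g2 stood at 8.32, 8.62 and 8.27 CPM in control neuron libraries and at 0.452 to 1.08 in control whole CA (3.15 ± 0.17 (SE), edgeR adjusted p = 5.99e-14). Atp5g1 stood at 32.2, 32.6 and 33 against 20.4 to 24.4 CPM (0.39 ± 0.08), while Atp5g3 was lower in neuron RNA (-1.19 ± 0.22). Cox7c stood at 19.3, 25.1 and 21.7 against 3.71 to 7.16 CPM (1.91 ± 0.17). Atp5h, of the peripheral stalk (0.64 ± 0.09), and Ndufs3, a core subunit of complex I (0.58 ± 0.07), completed the set. Ndufb2, Ndufb4, Ndufs7 and Cox5b were not called in either direction. Several of these small subunits have near-identical copies elsewhere in the genome, and how reads shared between copies were counted is not given in the sources used here, so their values are uncertain.

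**Figure D4:**
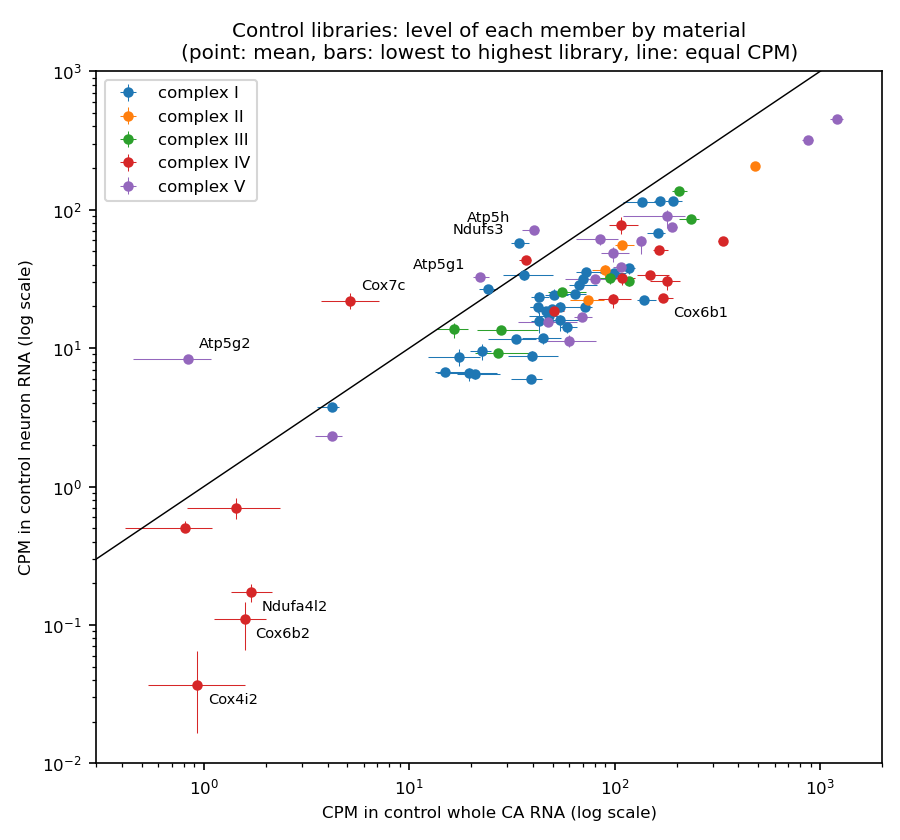
Mean CPM of each tested member in control whole CA libraries (horizontal axis, log scale) and control neuron libraries (vertical axis, log scale), coloured by complex; bars run from the lowest to the highest library and the line marks equal values. Most members lie below the line, while Atp5g2, Cox7c, Atp5h, Ndufs3 and Atp5g1 lie above it. Ndufb2 and Cox5b, which were not called in either direction, also lie above it. CPM were scaled within each material.

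Other gene lists are given beside the same background of 39.8% lower and 43.2% higher among all genes, under which most genes were called in one direction or the other; whether any list differs from it was not tested. Of the 18 enzymes of the tricarboxylic acid cycle, 14 were lower in neuron RNA and 1 was higher (median -1.26), of 16 glycolytic enzymes 9 and 5 (-0.70), of 50 assembly factors 32 and 12 (-0.61), and of 16 regulators of mitochondrial genes 5 and 10 (0.45). Cyc1, the cytochrome c1 subunit of complex III whose symbol falls outside the member rule, was lower (-0.58 ± 0.10 (SE) on the log2 scale). Ndufab1, the acyl carrier protein bound to complex I and also outside the rule, was higher (1.80 ± 0.09). Mitochondrially encoded subunits summed to 60.1 to 101 CPM in control neuron RNA and 36300 to 54300 CPM in control whole CA. Of these 13 genes, mt-Co2, mt-Co3, mt-Atp6, mt-Atp8 and mt-Nd4l are listed at 0 in all 18 RNA libraries of both materials, so the sums rest on the others. Listed nuclear-retained RNAs such as Malat1 and Meg3 summed to 34800 to 38900 against 5280 to 6400 CPM, with 6 of 7 higher. Markers of astrocytes (5 of 5), oligodendrocytes (5 of 5), microglia (5 of 5) and endothelium (4 of 4) were lower in neuron RNA, and so were 5 of 6 neuron markers (median -1.01). The part of these shifts in the member values was not tested.

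Between genotypes, edgeR called 1 gene of these lists of related function. No assembly factor was called in neuron RNA (0 of 51, 2 with an unadjusted p under 0.05) or whole CA (0 of 50, with 9). The same held for mitochondrially encoded subunits (0 of 7, with 0 in each material), regulators (0 of 16, with 2 and 0) and glycolytic enzymes (0 of 16, with 2 and 3). Among all genes tested, 3379 of 19622 in neuron RNA and 2410 of 15362 in whole CA had an unadjusted p under 0.05. Dlat, a subunit of pyruvate dehydrogenase, was the single enzyme called among 18 of the tricarboxylic acid cycle list, in whole CA only at -0.24 ± 0.05 (SE) on the log2 scale (edgeR adjusted p = 0.00972). Nrf1, which encodes the NRF1 factor, stood at 26, 23.8 and 26 CPM in cKO neuron libraries and 30.6, 27.3 and 31.7 in control (-0.24 ± 0.09 (SE), edgeR adjusted p = 0.247). Ppargc1a, a coactivator of mitochondrial biogenesis, stood at 51.7, 60.6 and 46.8 against 37.1, 47.4 and 47.7 CPM (0.27 ± 0.12 (SE), edgeR adjusted p = 0.297). In whole CA both differed by less than 0.1 on the log2 scale.

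At the chromatin level, nearly all member starts carried the 4 histone marks measured in sorted neuronal nuclei. A peak lay within 2 kb of the start in every control library at 69 of 71 member starts for H3K4me3, 69 for H3K27ac (3 libraries), 69 for H3K4me1 and 68 for H3K9ac. Of all 32851 starts, 51.8%, 50.8%, 60.9% and 51.1% had one. In the libraries labelled cKO the member counts were 68, 69, 67 and 69, the last from 3 libraries.

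The length of DNA covered by H3K4me3 peaks within 2 kb either side of a start was shorter in cKO at 17 of 69 tested member starts, in 15 genes, and longer at 1. Among all 17911 starts tested with limma, 14.3% were shorter and 0.586% longer, and whether the members' share differs from that background was not tested. The median difference of member starts was -0.13 on the log2 scale of covered bp plus 100, beside -0.06 for all starts, with 62 of 69 below 0. By complex, 9 of 33 starts were shorter in complex I, 0 of 3 in II, 1 of 5 in III, 1 of 11 in IV and 6 of 17 in V. Without overlap, cKO lay below control at 26 member starts and above at 1, beside 21.5% and 1.17% of all starts. The count of 18 called member starts, shorter and longer together, depends on the choices: with 1 kb either side no member start was called, and without control replicate 4 the count was 11. The smaller window is shorter than the median coverage of member starts within 2 kb either side (2567 bp in control, 2296 bp in cKO). It cannot show shortening beyond its edges, and whether this bears on the lost calls was not tested. With the smaller window 267 of all 17143 starts were called, beside 2669 of 17911 with the larger window. H3K4me3 libraries held 24.4 to 27.8 M tags in cKO and 26 to 26.9 M tags in control, and 1 input library per genotype was used, so input and genotype cannot be told apart. Peak lists hold no read counts, so a change of height inside a peak is not measured.

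The start of Ndufs3 (chromosome 2, gene at 90894627 to 90904721 on GRCm38.p6, minus strand) had the smallest p. Its H3K4me3 covered 2239, 2114, 2141 and 2264 bp in cKO and 2974, 3290, 2961 and 3131 bp in control (-0.48 ± 0.04 (SE) on the log2 scale, limma adjusted p = 0.000804). Ndufb4 (chromosome 16, 37647602 to 37654368, minus strand) was covered over 1692, 1874, 1844 and 1693 bp against 2336, 2286, 2429 and 2478 bp (-0.41 ± 0.05 (SE), limma adjusted p = 0.002). Cox7b, of complex IV, had 1325, 1542, 1752 and 1353 against 2136, 1990, 2028 and 2002 bp (-0.43 ± 0.08 (SE), limma adjusted p = 0.0153). At all 3 every cKO library lay below every control library. Atp5g3 of the c-ring (-0.30 ± 0.04), both starts of Ndufa5 (-0.30 ± 0.04 each) and both of Atp5d (-0.25 ± 0.05 each) were also shorter, and starts of 1 gene share their peak. The remaining shorter starts belonged to Ndufb8, Uqcrh, Ndufv2, Ndufa1, Ndufa12, Atp5f1, Atp5k, Atp5j and Ndufb3. Atp5j has 2 starts, and the other was not called, with 2614, 2836, 2881 and 3174 bp in cKO against 3005, 3124, 3165 and 3543 bp in control. Ndufs7 alone was longer, with 2588, 2976, 2766 and 2888 bp in cKO and 2323, 2505, 2390 and 2206 bp in control (0.24 ± 0.06 (SE), limma adjusted p = 0.0259).

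The 250 bases before the start are printed for the 3 shorter starts with the smallest p that lie at the outer edge of their RefSeq gene, to show the DNA under these peaks (minus strand genes, written 5′ to 3′ toward the start; capitals are the motif letters named above).
Ndufs3: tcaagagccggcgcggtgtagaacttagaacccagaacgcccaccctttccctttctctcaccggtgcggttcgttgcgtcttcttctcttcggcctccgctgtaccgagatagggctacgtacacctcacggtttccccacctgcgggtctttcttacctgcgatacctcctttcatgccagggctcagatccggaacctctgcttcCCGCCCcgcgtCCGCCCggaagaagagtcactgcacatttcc
Ndufb4: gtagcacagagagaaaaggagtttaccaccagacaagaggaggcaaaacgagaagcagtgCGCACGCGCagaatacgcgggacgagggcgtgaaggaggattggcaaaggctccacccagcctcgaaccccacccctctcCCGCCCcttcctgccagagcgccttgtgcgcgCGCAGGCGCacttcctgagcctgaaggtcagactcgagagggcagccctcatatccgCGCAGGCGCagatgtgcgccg
Ndufa5: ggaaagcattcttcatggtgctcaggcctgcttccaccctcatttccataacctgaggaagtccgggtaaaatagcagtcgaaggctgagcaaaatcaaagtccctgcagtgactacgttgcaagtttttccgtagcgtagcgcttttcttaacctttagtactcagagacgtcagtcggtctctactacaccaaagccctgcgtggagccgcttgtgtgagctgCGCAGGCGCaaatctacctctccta
They lie at chr2:90904722-90904971, chr16:37654369-37654618 and chr6:24527691-24527940 of GRCm38.p6. Ndufs3 held SP1 letters 42 and 31 bases before its start, Ndufb4 held NRF1 letters at 190, 78 and 21 bases and SP1 letters at 110, and Ndufa5 held NRF1 letters at 25.

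**Figure D5:**
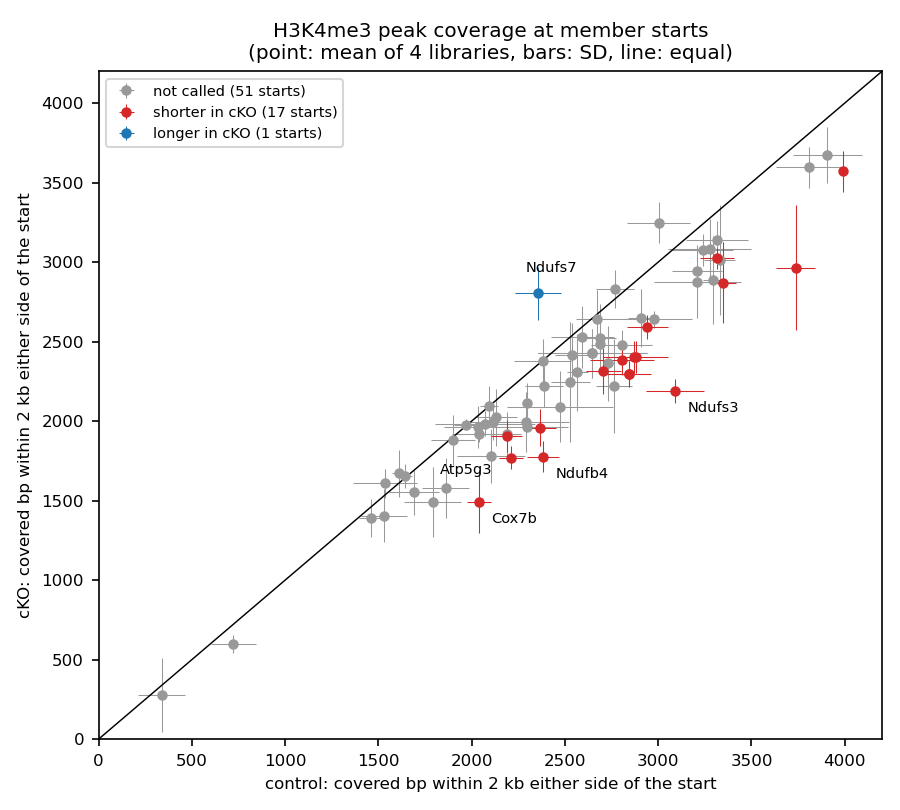
DNA covered by H3K4me3 peaks within 2 kb either side of each tested member start, in control (horizontal axis, bp) and cKO (vertical axis, bp); points are means of 4 libraries, bars 1 SD and the line marks equal coverage. The 17 starts shorter in cKO are red and lie below the line, and Ndufs7, at 2804 against 2356 bp, lies above it.

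RNA of the genes with a shorter H3K4me3 start did not pass the test in either material. Among these 15 genes the neuron log2 fold change ran from -0.25 to 0.32 with a median of 0.01, and 7 were below 0; among the 61 other members tested in neuron RNA that had no called start, the median was -0.05 and 39 were below 0. Ndufs3 had 58.9, 60.7 and 60.8 CPM in cKO and 56.7, 59.1 and 57.5 in control neuron RNA (0.06 on the log2 scale). Ndufb4, with a shorter start, had a positive RNA difference of 0.32, and Ndufs7, with the longer one, a negative RNA difference of -0.26, neither called. RNA and ChIP libraries were separate samples, so the values stand side by side only.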

How the data were processed

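The deposited RNA files hold 1 whole-number count per Ensembl gene identifier and library; the aligner, the counter, the annotation and strandedness are not given in the sources used here. The deposited ChIP files are peak lists, 1 per library, with peak lengths and −log10 q-values, called with MACS 2.1.1.20160309 for H3K4me3 and 2.1.0.20140616 for the other marks at a q cutoff of 0.1, per the file headers. The submitters' processing notes name mm10 and GRCm38, and the libraries were made with the TruSeq RNA v2 and NEBNext Ultra kits, per the labels' protocols. Those protocols describe extraction from whole tissue and give no isolation step for the neuron libraries.

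Symbols came from a supplied table that matched 99.3% of neuron and 98.9% of whole CA identifiers. The quasi-likelihood test of edgeR 4.0.16 was run on the counts after filterByExpr, with TMM factors, separately in each material and in 1 fit of all 18 libraries for the interaction and the comparison of materials. Calls are Benjamini-Hochberg adjusted p under 0.05 over all genes tested. CPM values use TMM-scaled library sizes, with the factors taken separately in each material. Intervals are 95% and unadjusted. H3K4me3 coverage (log2 of covered bp plus 100, starts with a peak in at least 3 libraries) was tested with limma 3.58.1. RefSeq starts on GRCm38.p6 were used. The fits were tested on simulated data. Libraries were not duplicates.

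Alternatives were DESeq2 1.42.0, scaling by RLE or by library size alone, leaving out the filter or asking for a mean of 10 counts, an adjusted p under 0.1, a replicate block, each library left out, the lanes, members that passed the neuron filter (added after the data were seen), and for peaks another window, offset and q. The members and lists were chosen with earlier results of these data known. Members named were those with the smallest p per complex and material, core subunits, paralogue groups, the member with the most counts per complex in whole CA controls, and the extremes of the comparison of materials (1 gene this rule names is not reported here); others, such as Ndufa1, Cox7c, Ndufs3, Ndufs8, Atp5d and Atp5h, and the H3K4me3 starts, were named after their values were seen.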

Additional observations from a re-analysis of the deposited data

Results flagged for a closer look

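A check for single libraries standing apart from the rest of their group was run on 112 groups of 4 or 6 values, and chance alone gives such a flag in about 5% of them. In whole CA RNA, 1 library labelled cKO had 218 CPM of Cox6b1, with the next at 174, and 1 labelled control had 192 CPM of Cox6b1, with the next at 173. The lowest library labelled cKO had 93.4 CPM of Sdhb, with the next at 116. At the start of Uqcrh the lowest control library had 3966 bp of H3K4me3 coverage, while the other control libraries filled the whole window of 4001 bp, so the coverage there is limited by the window.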

How the results depend on the processing

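No member was called for genotype, or for the interaction, under any alternative run. The median log2 fold change of the members ran from -0.09 to 0.004 in neuron RNA and from -0.07 to 0.11 in whole CA, crossing 0 in both. The comparison of materials gave 68 to 72 members lower and 5 or 6 higher, the lowest over members that passed the neuron filter, an alternative chosen after seeing the data. Called H3K4me3 starts of members, 18 in all, numbered 0 with 1 kb either side, 8 with a replicate block, and between 11 and 18 when a library was left out (11 without control replicate 4). Coverage beyond 1 kb is not seen in the smaller window, and the cause of these shifts was not tested. An offset of 1000 bp gave 20 and a −log10 q of at least 5 gave 16. Of 1058 alternative values for single named genes, 1023 moved by less than their standard error and 35, in 21 results, by more; the lowest adjusted p among them was 0.0798.

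Whether replicate numbers pair the samples is not known, and the correlations between libraries do not settle it. Same-numbered libraries had correlations of deviations of -0.105, 0.383 and -0.169 in neuron RNA, -0.070 to 0.249 in whole CA and -0.075 to 0.065 for H3K4me3. With a replicate block the members' median was -0.054 for neuron libraries and 0.016 for whole CA libraries, with 0 called. The median half-width of the members' intervals, 0.22 in neuron RNA and 0.18 in whole CA, limits what could be seen, and coverage within a fixed window cannot show changes of peak height.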
